A study of Saccharomyces cerevisiae with 12 samples.

Results

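The genes described here are 39 nuclear genes of the respiratory chain of budding yeast, Saccharomyces cerevisiae. They come from a list of symbols fixed by function. No rule on measured values was used, but the list was chosen with earlier results of these data known. Its members are part of the 5449 S. cerevisiae genes with a probe set. They fall into 21 genes called subunits below (3 NADH dehydrogenases, 9 complex III subunits, the cytochrome c gene CYC1 and 8 complex IV subunits) and 18 assembly factors (3 of complex III and 15 of complex IV). Each of the 39 had 1 probe set.

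The respiratory chain passes electrons from NADH and other donors through ubiquinone to complex III, on to cytochrome c and then to complex IV, which reduces oxygen. Budding yeast has no proton-pumping complex I. NADH dehydrogenases of a simpler kind take its place, facing the mitochondrial matrix or the intermembrane space. The core subunits of complexes III and IV are encoded partly in mitochondrial DNA, and a large set of nuclear assembly factors inserts heme and copper and brings the subunits together. While glucose is plentiful, nuclear genes of respiration are held at a lower level of transcription, a part of glucose repression.

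Transcripts were measured on one-colour Affymetrix arrays in yeast grown at 2%, 1%, 0.5% or 0.25% glucose, with 3 biological replicates per level and 12 arrays in all. All groups share the same species, Trizol extraction and biotin label; the labels give no strain, and the sample titles hold the word "log" without saying whether it names a phase of growth. Values are signals on a linear scale that the authors had scaled between arrays, so they show a gene's level relative to the rest of the array, not the amount of mRNA per cell.

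A gene was tested if its mean log2 signal over the 12 arrays lay above percentile 25 of all genes, a signal of 110. Of the 39 members, 35 passed this filter, 19 of the 21 subunits and 16 of the 18 assembly factors. NDE2, NDI1, SHY1 and PET117 were too dim. A gene is said to rise or fall where limma gave a Benjamini-Hochberg adjusted p under 0.05 over all 4086 genes tested. The glucose labels were checked on 2 hexose transporters: HXT1, used at high glucose, had 1350 ± 70.0 at 2% and 59.6 ± 12.5 at 0.25%, and HXT7, used at low glucose, had means of 345 and 2275 (SD, n = 3). Arrays of the same level correlated with r from 0.9815 to 0.9933 across genes, and the median standard error of a log2 difference was 0.113. Control probe sets set the 2% arrays apart. The log2 ratio of 3' to 5' signal, a measure of RNA integrity, averaged 1.28 ± 0.12 over 7 control genes at 2%, against 0.88 ± 0.06, 0.91 ± 0.03 and 0.88 ± 0.04 at 1%, 0.5% and 0.25%. Ribosomal RNA probe sets, 17 in number, had a mean log2 signal of 7.77 ± 0.94 at 2% and between 8.90 and 9.08 at the lower levels. The part of these differences in the comparisons with 2% was not tested, and for genes called against 2% the value at 0.25% against 1%, which takes its difference from no 2% array, is given as well.

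At 0.25% against 2% glucose, of the 35 tested members 8 rose and 0 fell (limma), while 2.91% of all genes tested rose and 1.13% fell. The 8 were NDE1, 5 subunits of complex III (RIP1, CYT1, QCR2, COR1 and QCR9), COX4 of complex IV and the assembly factor COX20. The median log2 difference over the tested members was 0.29, against -0.02 over all genes tested, and 33 of the 35 members had positive values, against 45.9% of all genes. In 19 of the 35 all 3 arrays at 0.25% lay above all 3 at 2%, which held for 10.1% of all genes tested. With the replicate number as a block, which compares arrays of the same number, 16 members rose and 0 fell (6.36% of all genes rose in that fit). The 8 added were QCR7, QCR10, CYC1, COX6, COX9, COX13, CBP4 and COX10. Of these, QCR7, CYC1 and COX13 also passed with the block at 0.25% against 1%. There QCR10, COX6, COX9, CBP4 and COX10 were at 0.27, 0.23, 0.20, 0.33 and 0.11 and passed in neither fit. In the fit against 2% without the block, 5 members rose without replicate 1 at 2%, or without replicate 3 at 0.25%. They were NDE1, RIP1, COR1, COX4 and COX20 in both cases. The share of all genes that rose with these arrays left out is not given.

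**Figure D1:**
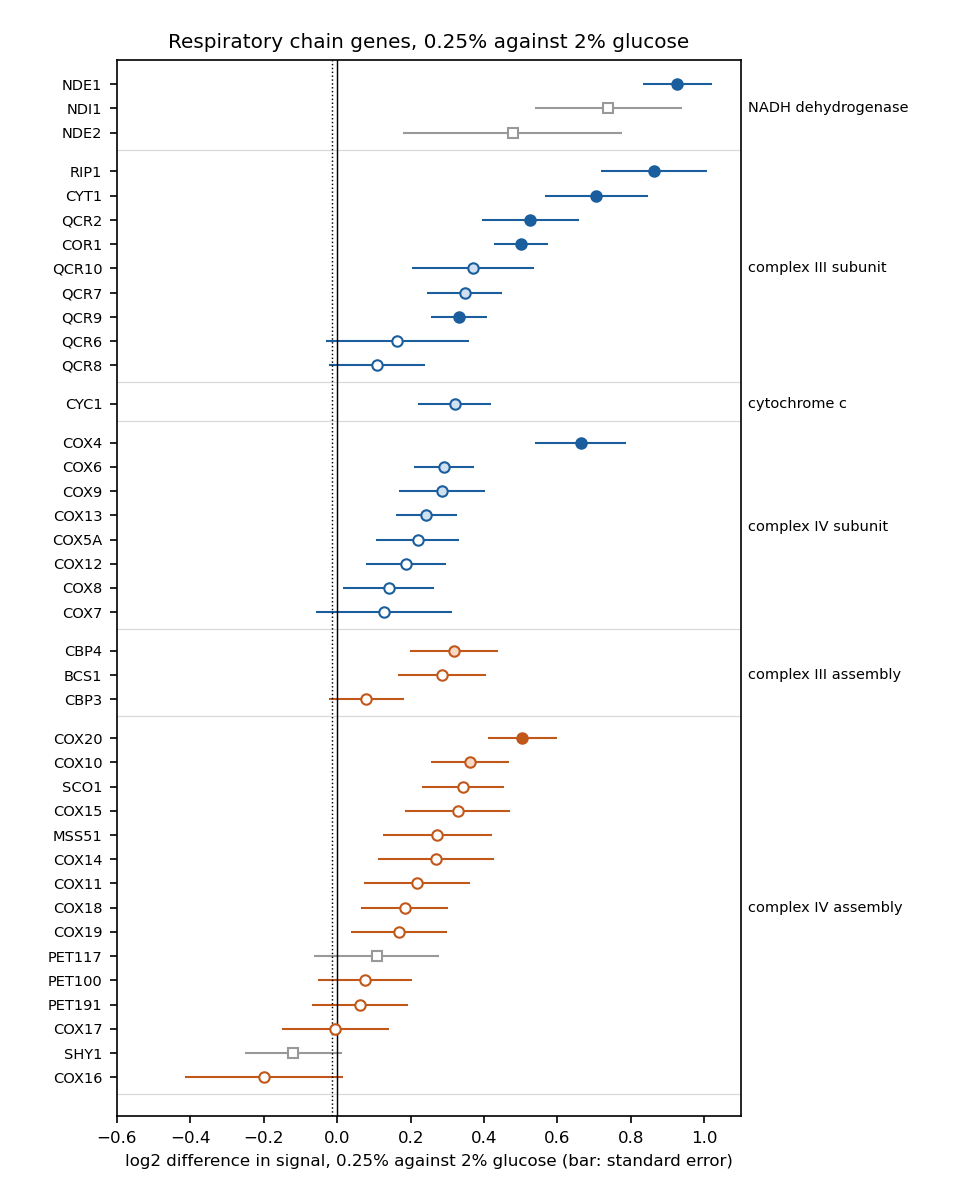
Log2 difference in signal between 0.25% and 2% glucose for each of the 39 genes, grouped by role, with the standard error as a bar (3 arrays per level). Filled points passed the test, pale points passed only with the replicate block, open circles passed neither, and grey squares are the 4 genes too dim to be tested. Blue marks subunits and orange assembly factors. The dotted line is the median of all genes tested (-0.02), and 33 of the 35 tested genes lie above 0.

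NADH dehydrogenases feed electrons from NADH into ubiquinone. NDE1 encodes the main external enzyme, which oxidises cytosolic NADH on the outer face of the inner membrane. Its signal was 616, 579 and 556 at 2%, 778, 701 and 740 at 1%, 729, 844 and 928 at 0.5%, and 1140, 1008 and 1186 at 0.25%. The arrays at 0.25% lay above all 9 others. The rise from 2% to 0.25% was 1.90-fold (log2 0.93, SE 0.09, adjusted p = 3.02e-05, limma), and NDE1 was also higher at 0.25% than at 1% (0.59, adjusted p = 0.0054) and at 0.5% than at 2% (0.51, adjusted p = 0.015). Leaving out replicate 2 at 2% ended the last of these calls (adjusted p = 0.0598), as did leaving out replicate 2 or 3 at 0.5% (0.0871 and 0.0865). NDE1 at 0.25% against 1% missed the threshold without replicate 2 at 1% (0.052).

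NDI1, the internal enzyme that oxidises NADH of the matrix, was too dim for the main test. It had 60.9, 92.1 and 98.9 at 2%, 102, 87.3 and 107 at 1%, 84.0, 113 and 143 at 0.5%, and 129, 133 and 151 at 0.25%, so that the arrays at 0.25% lay above those at 2%. In a fit of all genes without the dim filter its log2 difference was 0.74 (SE 0.20, adjusted p = 0.050, just above the threshold) and its slope on glucose passed (adjusted p = 0.022). NDE2, the second external enzyme, stayed near the bottom of the scale, with 9.46, 14.7 and 12.1 at 2%, 10.1, 10.8 and 14.6 at 1%, 12.1, 16.4 and 8.27 at 0.5%, and 17.7, 16.5 and 15.6 at 0.25%. Its arrays at 0.25% lay above those at 2% and overlapped with those at 0.5%. Its difference of 0.48 (SE 0.30) did not pass in the fit without the filter (adjusted p = 0.47).

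**Figure D2:**
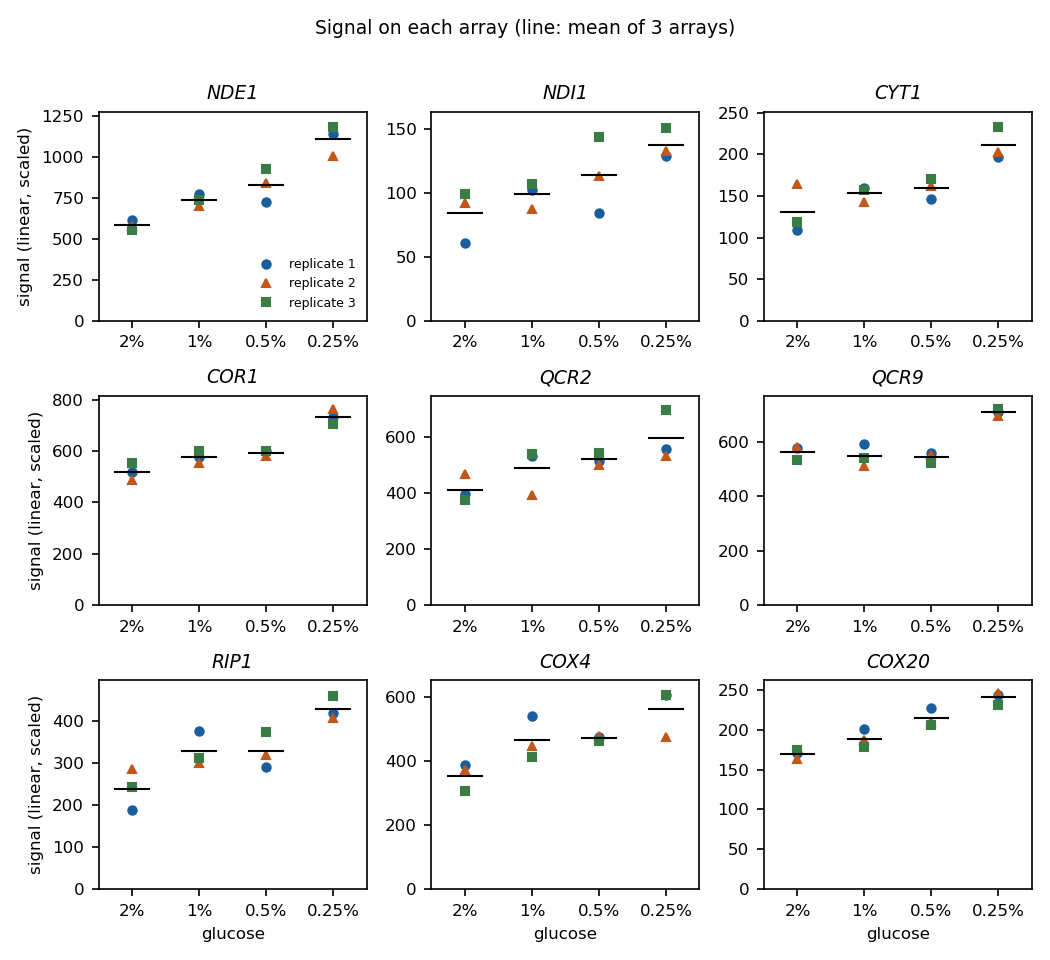
Signal on each of the 12 arrays (y axis, linear scale from 0) at the 4 glucose levels (x axis) for the 8 genes that rose at 0.25% against 2% and for NDI1, which was too dim to be tested. Symbols mark the replicate number and lines the mean of 3 arrays. In each of the 9 genes the arrays at 0.25% lie above the arrays at 2%.

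Complex III, the cytochrome bc1 complex, takes electrons from ubiquinol and hands them to cytochrome c. Of its 9 nuclear subunits 5 rose at 0.25% against 2%, and all 9 had positive values (median 0.37, from 0.11 to 0.86). Both nuclear subunits with redox centres were among them. RIP1, the Rieske iron-sulfur protein, had 188, 285 and 243 at 2%, 376, 300.2 and 311 at 1%, 291, 320 and 373 at 0.5%, and 420, 407 and 460 at 0.25%. The arrays at 2% lay below the other 9, and those at 0.25% above them. RIP1 was 1.82-fold higher at 0.25% than at 2% (log2 0.86, SE 0.14, adjusted p = 0.0027, limma). Its log2 difference was 0.48 between 2% and 1%, -0.01 between 1% and 0.5%, and 0.39 between 0.5% and 0.25%, and none of these steps passed (adjusted p = 0.41 for the first and 0.999 for the last). Against 1% it was 0.39 higher at 0.25% and did not pass (adjusted p = 0.45). CYT1, cytochrome c1, had 110, 165 and 119 at 2%, 159, 143 and 157 at 1%, 147, 162 and 170 at 0.5%, and 197, 202 and 233 at 0.25%. Replicate 2 at 2% was the high array of its level and overlapped with the arrays at 1% and 0.5%, while the arrays at 0.25% lay above all others. CYT1 rose 1.63-fold (0.71, SE 0.14, adjusted p = 0.0095), and missed the threshold without replicate 1 at 2% (0.063), without replicate 3 at 0.25% (0.052) or with ribosomal RNA signal as a covariate (0.051). Its difference between 1% and 0.25% was 0.46 (adjusted p = 0.25, not passing).

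The array carries control probe sets along the RIP1 transcript, so its rise was read at other positions as well. The 5' control probe set had 148, 169 and 156 at 2% and 305, 328 and 312 at 0.25%, 2.00-fold higher. The middle set had 133, 184 and 192 at 2% and 249, 294 and 319 at 0.25%, 1.71-fold higher. The 3' set had 133, 175 and 161 at 2% and 259, 228 and 272 at 0.25%, 1.62-fold higher. At each position the arrays at 0.25% lay above those at 2%, and so did the arrays at 1% and at 0.5%. These probe sets were not in the tested table and have no adjusted p. The log2 ratio of 3' to 5' signal for RIP1 was -0.02 ± 0.12 at 2% and -0.22 ± 0.11, -0.36 ± 0.08 and -0.32 ± 0.18 at 1%, 0.5% and 0.25%. The 3' position gave the smallest of the 4 folds. Between 1% and 0.25% glucose, the 5', middle and 3' sets and the gene's own probe set differed by 0.39, 0.27, 0.29 and 0.39 on the log2 scale.

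**Figure D3:**
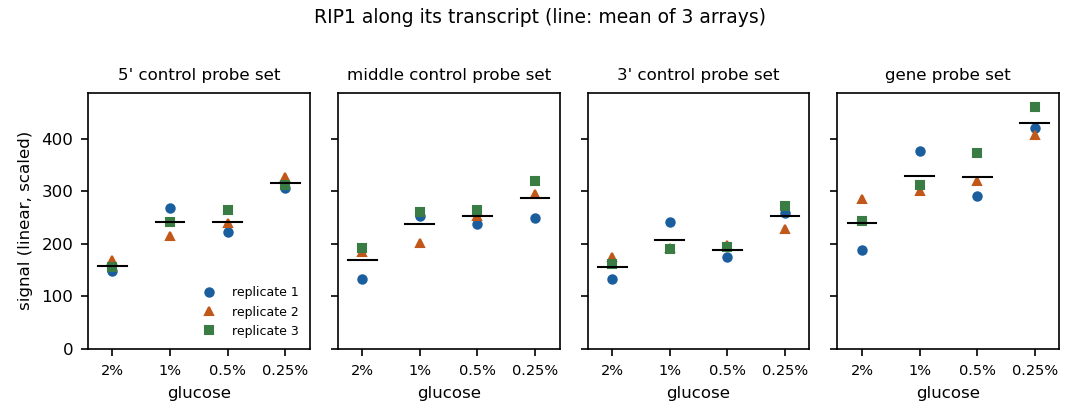
Signal of the 3 control probe sets along the RIP1 transcript and of the probe set used for the gene (y axis, linear scale from 0) on each array at the 4 glucose levels (x axis). Symbols mark the replicate number and lines the mean of 3 arrays. In each panel the 3 arrays at 2% lie below all 3 at 0.25%, by 1.62-fold at the 3' end and 2.00-fold at the 5' end.

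COR1 and QCR2, the large core subunits that face the matrix, both rose. COR1 had 516, 485 and 554 at 2%, 577, 552 and 599 at 1%, 599, 581 and 598 at 0.5%, and 732, 762 and 705 at 0.25%. The spread within each level was small and the arrays at 0.25% stood above the other 9. COR1 rose 1.42-fold from 2% (0.50, SE 0.07, adjusted p = 0.00098) and was higher at 0.25% than at 1% (0.35, adjusted p = 0.040). The call against 1% was not stable: leaving out 1 array ended it for 10 of the 12 arrays, all but replicates 2 and 3 at 2%, with adjusted p from 0.0542 to 0.25, and quantile normalization gave 0.13. QCR2 had 396, 467 and 374 at 2%, 532, 394 and 540 at 1%, 515, 500.5 and 544 at 0.5%, and 556, 534 and 695 at 0.25%. The arrays at 0.25% lay above those at 2%, and those at 1% overlapped with both. Its rise was 1.44-fold (0.53, SE 0.13, adjusted p = 0.039). Leaving out 1 array ended this call for 7 of the 12 arrays (replicates 1 and 3 at 2%, each at 0.5%, and replicates 1 and 3 at 0.25%), with adjusted p from 0.0529 to 0.174, and the ribosomal RNA covariate gave 0.162. Between 1% and 0.25% it differed by 0.29 (adjusted p = 0.72, not passing).

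Among the small subunits, QCR9, which lies beside the Rieske protein and cytochrome c1, had 577, 581 and 536 at 2%, 593, 511 and 541 at 1%, 558, 554 and 522 at 0.5%, and 711, 695 and 723 at 0.25%. The first 3 levels overlapped and the arrays at 0.25% lay well above them. QCR9 rose 1.26-fold from 2% (0.33, SE 0.08, adjusted p = 0.024) and from 1% (0.37, adjusted p = 0.030). Leaving out replicate 1 or 3 at 2%, or any array at 0.25%, ended the first call (adjusted p from 0.059 to 0.095). The call against 1% was lost without replicate 2 or 3 at 1%, replicate 2 at 0.5% or any array at 0.25%, with adjusted p from 0.062 to 0.23. QCR7, a small subunit on the matrix side, had means of 1143 at 2% and 1453 at 0.25%. Its log2 difference was 0.35, above the threshold at an adjusted p of 0.084 and below it with the block (0.0011). QCR10, a peripheral subunit that is not essential for the complex, had 402 and 525 (0.37, adjusted p = 0.29; 0.031 with the block). QCR8, which contributes to the ubiquinone site, and QCR6, the acidic hinge protein, had 1540 and 1671 (0.11) and 691 and 773 (0.16) and passed in neither fit. With the ribosomal RNA covariate QCR6 was at 0.55 and passed (adjusted p = 0.0439). In QCR6, QCR7, QCR8 and QCR10 the array of replicate 1 lay above that of replicate 3 at every level, for example 830 against 544 in QCR6 at 2% and 866 against 598 at 0.25%.

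CYC1, the major isoform of cytochrome c, had 577, 542 and 494 at 2%, 571, 575 and 468 at 1%, 582, 537 and 509 at 0.5%, and 654, 729 and 630 at 0.25%. The arrays of 2%, 1% and 0.5% overlapped fully, and those of 0.25% lay above all of them. Its log2 difference of 0.32 (SE 0.10) had an adjusted p of 0.10, and of 0.0063 with the replicate block. Against 1% it was 0.32 (adjusted p = 0.25; 0.018 with the block). CYC7, the minor isoform known from hypoxic growth, was too dim to be tested, with 37.2 ± 12 at 2% and 46.1 ± 10.8 at 0.25%.

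Complex IV, cytochrome c oxidase, is the terminal enzyme of the chain. Of the 8 nuclear subunits among the members 1 rose, COX4, and all 8 had positive values (median 0.23, from 0.13 to 0.66). COX4, a zinc-binding subunit on the matrix side, had 387, 372 and 306 at 2%, 541, 448 and 414 at 1%, 475, 479 and 463 at 0.5%, and 606, 475 and 607 at 0.25%. The arrays at 2% lay below the other 9, and those of the 3 lower levels overlapped. COX4 rose 1.58-fold (0.66, SE 0.12, adjusted p = 0.0060), of which 59.6% on the log2 scale lay between 2% and 1%. Between 1% and 0.25% its difference was 0.27 and did not pass (adjusted p = 0.72).

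In COX6, COX9 and COX13, small subunits around the catalytic core, the arrays at 0.25% also lay above those at 2%, with means of 533 and 651, of 729 and 892, and of 761 and 897. Their differences of 0.29, 0.29 and 0.24 missed the threshold (adjusted p = 0.065, 0.24 and 0.15) and passed with the replicate block (0.0045, 0.033 and 0.021). With the ribosomal RNA covariate COX6 was at 0.38 and COX9 at 0.51, and both passed (0.0264 and 0.00461). COX5A, the aerobic form of subunit 5, had means of 801 at 2%, 795 at 1%, 812 at 0.5% and 927 at 0.25% (0.22, adjusted p = 0.37; 0.10 with the block). Its hypoxic counterpart COX5B had 354 ± 39.2 at 2% and 373 ± 56.9 at 0.25%, a difference of 0.07 (adjusted p = 0.87). COX7, COX8 and COX12, further small subunits, had means of 890.5 and 978 (0.13), of 807 and 895 (0.14), and of 804 and 918 (0.19), and passed in neither fit. In COX7, which has the widest spread of the 3, replicate 1 read 966, 927, 1124 and 1158 from 2% down to 0.25%, and replicate 3 read 796, 677, 612 and 827.

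Assembly factors insert cofactors and join the subunits. Of the 16 tested 1 rose, COX20 (3 with the replicate block: COX20, COX10 and CBP4), against 7 of 19 subunits (13 with the block). The median log2 difference was 0.24 for assembly factors and 0.32 for subunits, a gap of 0.08. Between replicate arrays of a level the class gap varied by an SD of 0.04. That value is shared by all comparisons and is not the spread of a difference between glucose levels. The gap was not put to a test, and this SD does not include the spread between the genes of a class. Of the assembly factors 14 of 16 had positive values. COX20, a chaperone of the newly made mitochondrial subunit Cox2, had 171, 163 and 175 at 2%, 201, 187 and 179 at 1%, 228, 210.2 and 205 at 0.5%, and 244, 246 and 231 at 0.25%. Its means were higher at every step down in glucose, and the 3 arrays at 0.25% lay above all 9 others. COX20 was 1.42-fold higher at 0.25% than at 2% (0.50, SE 0.09, adjusted p = 0.0057). The call was lost, at 0.43 and an adjusted p of 0.081, in a fit with the block and the ribosomal RNA covariate together, which was added after seeing the data. Against 1% it differed by 0.35 (adjusted p = 0.15, not passing).

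The other complex IV factors ranged from -0.20 to 0.36. Factors of heme A synthesis, COX10 and COX15, had means of 118 and 151 (0.36, adjusted p = 0.080; 0.036 with the block) and of 355 and 446 (0.33, adjusted p = 0.27) at 2% and 0.25%. Among copper delivery factors, SCO1 had 195 and 247 (0.34, adjusted p = 0.12), COX11 149.8 and 175 (0.22), COX19 134 and 151 (0.17) and COX17, the copper donor of the intermembrane space, 773 and 767 (-0.01). For COX17 the arrays spread from 643 to 917 at 2% and from 655 to 860 at 0.25%. MSS51, which both activates translation of COX1 mRNA and chaperones its product, had 402 and 491 (0.27), with arrays of 424, 424 and 626 at 0.25%. COX14, its partner, had 407 and 495 (0.27), and COX18, an insertase for Cox2, 118 and 134 (0.18). PET100 and PET191, which act on other steps of complex IV assembly, had 188 and 198 (0.07) and 256 and 268 (0.06). COX16 had 175 and 155 (-0.20), and adjusted p was between 0.73 and 0.88 for these 3. The 2 factors too dim for the test, SHY1 and PET117, had means of 99.6 and 92.1, and of 108 and 118, at 2% and 0.25%. For complex III, CBP4, which acts on newly made cytochrome b with CBP3, had 163 and 203 (0.32, adjusted p = 0.19; 0.036 with the block). BCS1, the AAA protein that places the Rieske protein, had 170.3 and 207 (0.29, adjusted p = 0.25), and CBP3 245 and 259 (0.08, adjusted p = 0.78).

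The steps between neighbouring glucose levels were read in turn, and differences between the steps were not tested. From 2% to 1% the median log2 difference was 0.08 and 0 of 35 members passed by limma, where 0.22% of all genes rose. At an unadjusted p under 0.05 the count was 4, and the share of all genes 6.9%. In 6 members all arrays at 1% lay above those at 2%, as in 4.97% of all genes. From 1% to 0.5% the median was -0.01 and 0 passed by limma, where 0.0734% of all genes rose. At an unadjusted p under 0.05 the count was 1, COX11, which was lower at 0.5% (-0.34), and the share of all genes 3.38%. From 0.5% to 0.25% the median was 0.23, against 0.04 over all genes. Positive values were found in 34 of 35 members and in 65.4% of all genes. In that step 0 passed by limma, where 0.0734% of all genes rose, while 16 had an unadjusted p under 0.05, as did 3.33% of all genes, and 14 had all arrays at 0.25% above those at 0.5%, as did 7.34%. With the replicate block NDE1 and QCR9 passed in it (adjusted p = 0.040 and 0.015), and 0.367% of all genes rose. These steps share arrays with each other and with the comparison to 2%. Between 1% and 0.5% the class medians were 0.03 for subunits and -0.07 for assembly factors.

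**Figure D4:**
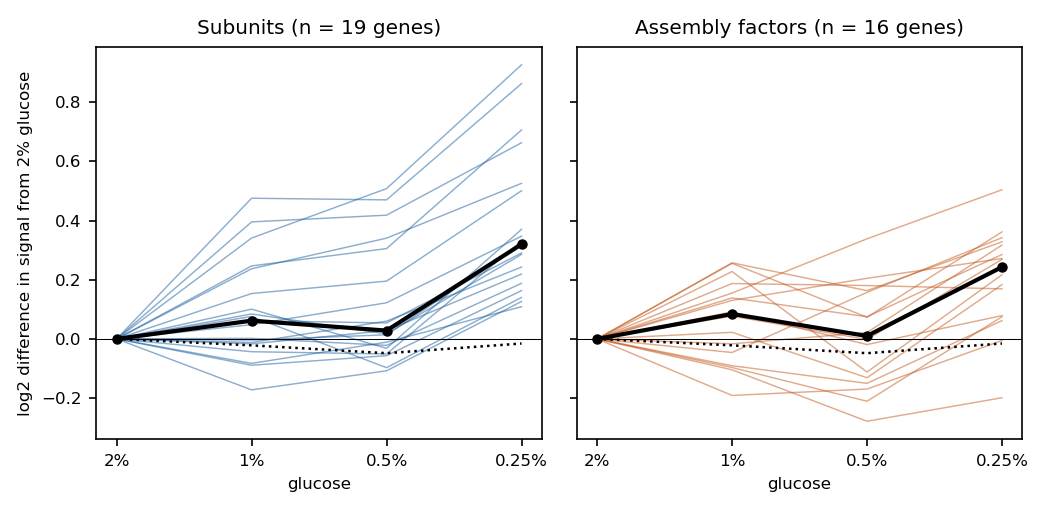
Log2 difference in signal from 2% glucose (y axis) at the 4 glucose levels (x axis) for the 19 tested subunits and the 16 tested assembly factors. Thin lines are genes, the thick black line is the median of the class and the dotted line the median of all genes tested. The class medians are at 0.06, 0.03 and 0.32 for subunits and 0.08, 0.01 and 0.24 for assembly factors at 1%, 0.5% and 0.25%.

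A graded relation was tested as a slope on log2 glucose over all 12 arrays. It passed for 7 members, all with higher signal at lower glucose: NDE1, RIP1, CYT1, QCR2, COX4, COX20 and COR1 (3.52% of all genes passed in that direction). With the block 12 members passed (6.0% of all genes in that direction), the added ones being QCR7, CYC1, COX6, COX13 and SCO1 (adjusted p = 0.0021, 0.032, 0.018, 0.029 and 0.031). NDE1 gained 0.29 on the log2 scale per 2-fold drop in glucose (SE 0.03, adjusted p = 9.06e-06, limma), RIP1 0.26, CYT1 0.22, COX4 0.20, and COX20, QCR2 and COR1 between 0.15 and 0.17. QCR2 missed the threshold without replicate 1 or 3 at 2% or replicate 3 at 0.25% (adjusted p = 0.065, 0.068 and 0.085). With the 9 arrays at 1%, 0.5% and 0.25% alone, the slope passed for NDE1 only among the members (0.808% of all genes passed in that direction). In a fit of these arrays with the replicate block, added after seeing the data, it passed for 8 members (2.28% of all genes). In 8 of the 35 members the level means increased at each step. The share of all genes with such an order is not given, so this count has no background.

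At 0.5% against 2%, 1 member rose, NDE1 (0.808% of all genes rose), and with the block also RIP1 (0.47, adjusted p = 0.037), COX4 (0.42, 0.017) and COX20 (0.34, 0.030), where 3.35% of all genes rose. In 6 members all arrays at 0.5% lay above those at 2%, as in 6.53% of all genes. In 1 member, COX16, all lay below, and the share of all genes lying below is not given. At 0.25% against 1%, where no 2% array enters the difference, 3 of 35 members rose, all of them subunits: NDE1, COR1 and QCR9 (0.759% of all genes rose). In 11 members all arrays at 0.25% lay above those at 1%, as in 7.51% of all genes. The median was 0.27 over subunits and 0.15 over assembly factors, against 0.01 over all genes. With the block 6 members rose, the added ones being QCR7, CYC1 and COX13 (0.30, 0.32 and 0.25, adjusted p = 0.010, 0.018 and 0.042), and 2.06% of all genes. Without replicate 2 at 1% none of the 3 passed in the fit without the block. Of the 3, NDE1 alone passed without replicate 3 at 1%, replicate 2 at 0.5% or any array at 0.25%. For these fits with 1 array left out, the share of all genes that rose is not given.

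Gene length, which the choice of members did not use, went with the differences between arrays of the same level. It is the listed span of the gene, any intron included, and so not always the coding length. The split at 500 bases was chosen after the values were seen. The 20 tested members with up to 500 bases include COX9 (180), COX7 (183) and COX17 (210). All 20 had a lower mean log2 signal on the arrays numbered 3 than on those numbered 1 (median -0.25). Of the 15 longer members, such as NDE1 (1683) and COX15 (1461), 5 did (median 0.05). Over all genes tested the share was 81.3% of 433 short genes and 52.5% of 3653 longer ones. The difference between numbers 3 and 1 correlated with log2 gene length across the 35 members (r = 0.80, rho = 0.79), which share the 12 arrays. Across all 4086 genes r was 0.28. Ribosomal RNA signal moved with the numbers too, with mean log2 values of 8.32, 8.36 and 9.32 for numbers 1, 2 and 3. Its part was not tested.

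Length also went with the difference between 0.25% and 2% among the members (r = 0.48, rho = 0.52, n = 35), while among all genes it went the other way (r = -0.07, rho = -0.12, n = 4086). At 0.25% against 1% the values were r = 0.14 and rho = 0.11 among the members. The 5 tested subunits over 500 bases, NDE1, RIP1, CYT1, QCR2 and COR1, all rose (median 0.71), and 2 of the 14 shorter subunits did, COX4 and QCR9 (median 0.26). The 10 longer assembly factors had a median of 0.30 with 1 riser, COX20, and the 6 shorter ones a median of 0.07 with 0 (limma). Subunits are the shorter class, with a median gene length of 414 bases against 753, any intron included. Within each length class the median of subunits was thus above that of assembly factors. All 8 complex IV subunits have up to 468 bases, so among subunits length also goes with the complex. The part of length in the gap between the classes was not tested.

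**Figure D5:**
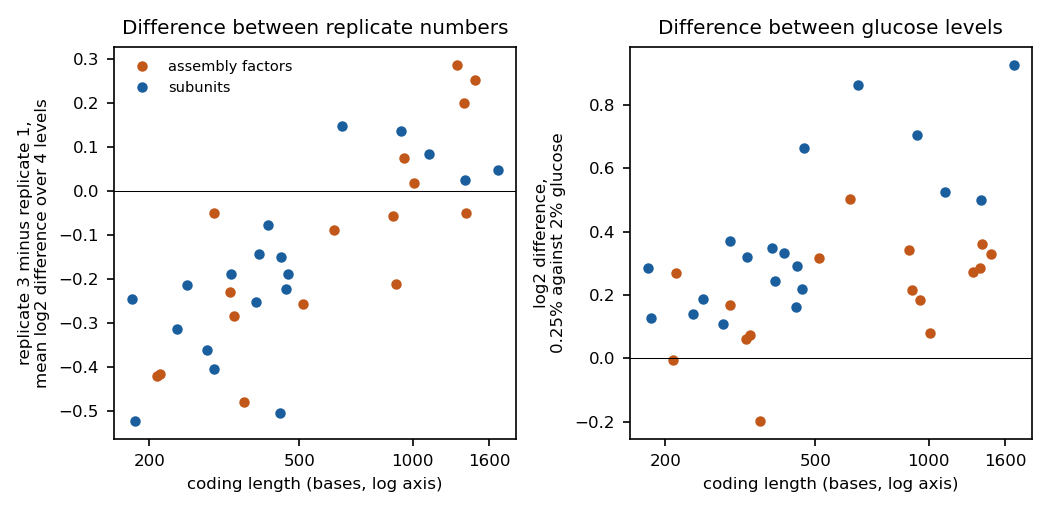
Gene length, any intron included, of the 35 tested members (x axis, log scale, labelled coding length). Left, the mean log2 difference between arrays numbered 3 and 1 over the 4 levels. Right, the log2 difference between 0.25% and 2% glucose. Blue points are subunits and orange points assembly factors. On the left, all 20 members with up to 500 bases lie below 0.

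Neighbouring parts of the pathway were counted on lists written from textbook knowledge. For counts at an unadjusted p under 0.05 in these lists, here and in the next paragraph, the share of all genes is not given. Those counts therefore do not show whether the listed genes differed more than other genes. Complex II, succinate dehydrogenase, links the TCA cycle to the chain, and 3 of its 4 genes rose at 0.25% against 2%: SDH2 (0.71, adjusted p = 0.0033, limma), SDH1 (0.63) and SDH4 (0.44). SDH3 was at 0.24 and passed with the block only (adjusted p = 0.049). At 0.25% against 1%, 0 of the 4 passed by limma (4 at an unadjusted p under 0.05), with values from 0.22 to 0.46, and with the block SDH1 and SDH3 did (adjusted p = 0.021 and 0.029). Of 3 further electron donors 2 were tested, and GUT2, the mitochondrial glycerol-3-phosphate dehydrogenase, rose from 113 ± 12.8 to 255 ± 16.8 (1.18, adjusted p = 1.3e-05; against 1%, 0.81 and adjusted p = 0.0014), while DLD1, D-lactate dehydrogenase, was at 0.28. Of the 10 genes of ubiquinone synthesis all were tested and 0 passed (limma; 1 at an unadjusted p under 0.05), with values from -0.13 to 0.24, the highest in COQ9. Among 12 genes for the expression of mitochondrially encoded subunits 6 were tested and 0 passed (2 at an unadjusted p under 0.05), with PET111 at 0.37 and CBP6 at 0.31 (adjusted p = 0.30; 0.038 with the block). Of 16 further assembly and maturation factors 14 were tested and 1 rose, CYT2, the heme lyase of cytochrome c1 (0.39, adjusted p = 0.040; against 1%, 0.21 and adjusted p = 0.72), while its counterpart for cytochrome c, CYC3, was at 0.36 (adjusted p = 0.22). COA2, of the same list, was at 0.38 and passed in neither fit (limma adjusted p = 0.39, and 0.058 with the block). All 14 had positive values. With the block RCF1, a factor of respiratory supercomplexes, passed too (0.32, adjusted p = 0.36 without the block and 0.039 with it).

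Of the 7 tested genes of heme synthesis 1 fell and 0 rose by limma, with a median of -0.08 and 3 positive values. The 1 was HEM13, coproporphyrinogen oxidase, known to be induced when oxygen or heme is low, which went from 578, 662 and 701 at 2% to 466, 518 and 519 at 0.25% (-0.37, SE 0.08, adjusted p = 0.023, limma). Against 1% it was at -0.30 (adjusted p = 0.17; 0.024 with the block). HEM2 and HEM1 were at 0.25 and 0.20 and passed as higher with the block (adjusted p = 0.023 and 0.032). Of the 6 regulators listed 4 were tested and 0 passed (limma; 0 at an unadjusted p under 0.05): HAP1, HAP2, HAP3 and the hypoxic repressor ROX1 had values from -0.14 to 0.15. COB, COX1, COX2 and COX3, the mitochondrially encoded core subunits, had no listed probe set and were not analysed here. In the fit without the dim filter 3 listed genes that were too dim for the main test passed as higher. They are named here after their values were seen, and the share of all genes passing in that fit is not given. HAP4, the activating subunit of the HAP complex that turns on respiratory genes, had 82.5, 75.0 and 54.8 at 2% and 146, 114 and 190 at 0.25% (1.07, adjusted p = 0.0036; against 1%, 1.03 and adjusted p = 0.015). CYB2, L-lactate dehydrogenase (19.7 at 2% and 41.1 at 0.25%, adjusted p = 0.013; against 1%, 0.68 and adjusted p = 0.34), and PET122, a translational activator of COX3 mRNA (0.86, adjusted p = 0.018; against 1%, 0.03 and adjusted p = 0.999), were the others.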

How the data were processed

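The authors deposited intensity values, a summary per probe set that is linear and already scaled between arrays; no source used here names the program behind them. Probe sets were paired with genes through GEO's platform annotation and updated through RefSeq symbols (assembly R64): 5498 of 10928 were named for 1 S. cerevisiae gene, giving 5449 genes, the brightest probe set being used for the 47 genes with more than 1. After a floor of 1, log2 was taken with no further scaling, since the medians of the 12 arrays spanned 0.173 (limit 0.2). Genes at or below percentile 25 were left out, which left 4086.

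limma 3.58.1 in R 4.3.3 was fitted to all 12 arrays with a mean per level, an intensity trend in the variance prior and Benjamini-Hochberg adjustment over 4086 genes, called at 0.05, two-sided. The main fit of 0.25% against 2% was tested on simulated data. Their noise was independent between arrays, without the link between same-numbered arrays described below. The simulation therefore does not show the error rate in these data. Members, lists and tests were chosen with earlier results of these data known. Every member is named; all 12 values are printed for members called at 0.25% against 2% or 1% or in the slope, for NDE2, NDI1 and, chosen after its values were seen, CYC1. In the further lists, only the leading tested genes are named, with COX5B and CYC7. Gene functions are background knowledge.

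Replicate numbers 1 to 3 recur at each level, and no label states that they pair. Deviations from the level means of same-numbered arrays correlated above 0.1 in 17 of 18 pairs (from -0.03 to 0.71); the exception was replicate 2 at 1% against 2%. In each other comparison all 3 pairs passed, so values with the replicate block are given where they change a call of a member, or of a gene named from the further lists at 0.25% against 2%. P-values measure the spread between these 12 arrays. Alternatives changed normalization, floor, filter, probe sets, block, arrays in the fit, variance prior, array weights and a ribosomal RNA covariate, and left out each array.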

Additional observations from a re-analysis of the deposited data

How the results depend on the processing

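With the replicate block, members called numbered 16 for 0.25% against 2% (13 subunits, 3 assembly factors), 4 for 0.5% against 2%, 6 for 0.25% against 1%, 2 for 0.25% against 0.5% and 12 for the slope, in place of 8 (7 and 1), 1, 3, 0 and 7; for 1% against 2% and 0.5% against 1% it changed no call. Quantile normalization, median scaling and array weights each gave 4 for 0.5% against 2%, and 13, 12 and 11 for the slope. Array weights gave 3 for 0.25% against 0.5% and 8 for 0.25% against 1%. No intensity trend and the compared levels alone each gave 1 for 0.25% against 1%. The slope gave 14 with the ribosomal RNA covariate and 1 on the levels below 2%. For the fits of this section other than the block alone and the slope below 2%, the share of all genes called is not given. Their counts therefore do not show whether the members changed more than other genes. Assembly factors called at 0.25% against 2% numbered 2 with quantile normalization, 3 with median scaling, 2 with no intensity trend, 2 with array weights and 0 with a dim filter at the median. The gap between the class medians there was 0.08, 0.14 with quantile normalization, 0.13 with no dim filter and 0.19 with the ribosomal RNA covariate.

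Chosen after seeing the data, the block with the ribosomal RNA covariate gave 6 members for 0.25% against 2% (COR1, COX4, COX6, COX9, NDE1 and RIP1, with CYT1, QCR2, QCR9 and COX20 lost), 2 for 0.5% against 2%, 1 for 1% against 2%, 2 for 0.25% against 0.5%, 7 for 0.25% against 1%, 14 for the slope and 0 assembly factors. Leaving out single arrays gave 5 to 9 members (4 to 8 subunits) for 0.25% against 2%, 0 to 1 for 0.5% against 2%, 0 to 3 for 0.25% against 1%, 6 to 8 for the slope and a gap of 0.0387 to 0.16.

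No member whose sign turned passed the test under the setting that turned it. They were COX17 (0.0338 with quantile normalization, 0.22 with the ribosomal RNA covariate, 0.00946 with that and the block), COX16 (0.0355 with the covariate), and COX7 (-0.061), PET100 (-0.00673) and PET191 (-0.11) with covariate and block. Over single arrays left out, QCR8 ranged from -0.00701 to 0.22, COX7 from -0.00201 to 0.24, COX16 from -0.36 to 0.00143, COX17 from -0.13 to 0.12 and PET191 from -0.00373 to 0.16. The cause of these changes was not tested. Signals near the bottom of the scale, as in NDE2, limit what can be said of the dim members, and 3 arrays per level limit precision.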
